A study of Mus musculus with 16 samples.

Results

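Regions of open chromatin that were read in FOXD3-depleted cells only, or in control cells only, were collected from an ATAC-seq series of mouse embryonic stem cells (mESCs). A region was taken as a member when it had a value in all 4 columns of one treatment and no value in at least 3 of the 4 columns of the other. On the autosomes 2660 of 124444 regions met this rule, and the whole table holds 127646 regions. They form a class read with 4HT only (1207 regions, 0.97% of the autosomal regions) and a class read with EtOH only (1453 regions, 1.17%). The 4HT and EtOH columns themselves chose the members: members were selected on whether each column held a value. Their counts, levels and missing values are a description and carry no test.

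All cells had the genotype FOXD3-iKO and grew in L2i medium. Tamoxifen (4HT) induced the depletion of FOXD3, EtOH served as control, and both lasted 24 h. Cells were sorted by DNA content, stained with DAPI, into the fractions G1, ES, LS and G2 (ES and LS as written in the labels). Each of the 8 groups had 2 libraries, 16 in all, and the table holds 1 merged column for each group, so the values below have no SD. The sources used here do not say whether the line is 1 clone or what drives its recombination. Foxd3 itself had 8 regions within 10 kb of its start and none was a member, and accessibility does not check the depletion. Of 17 naive pluripotency genes with a start site in the annotation used, 15 (Pou5f1, Nanog, Sox2, Esrrb and Zfp42 among them) had an autosomal region within 1 kb that was read in all 8 columns. The exceptions were Tcl1 and the X-linked gene Nr0b1.

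ATAC-seq maps accessible DNA with a transposase that inserts sequencing adaptors into it. FOXD3 belongs to the forkhead family of transcription factors and acts in pluripotent cells and neural crest, and forkhead proteins bind short AT-rich motifs. Accessible regions include promoters, at transcription start sites (TSSs), and distal elements such as enhancers.

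Sequence was at hand for promoters, and 26 members of the 4HT-only class and 36 of the EtOH-only class overlapped one. The 6 shown all lie over an annotated start of a protein-coding gene and do not stand for the members as a whole. A gene can have several such starts, and the one used at Olfm3 lies inside the gene. Where start sites were at hand, 1.71% and 1.70% of the classes lay over one, against 9.34% of all regions. Olfm3, Defb36, Piwil1 and Cdkn2c had no value in any column of the other treatment, while Jmjd8 and Nup93 had 1. Piwil1 and Cdkn2c fall outside the rule for named members and were chosen after their values were seen. The bases run 5′ to 3′ from 250 before the start to 30 from the start on, in RefSeq's GRCm38.p6, and capitals mark the bases inside the member.
Olfm3 (4HT-only, chr3:115080715-115080994, plus strand): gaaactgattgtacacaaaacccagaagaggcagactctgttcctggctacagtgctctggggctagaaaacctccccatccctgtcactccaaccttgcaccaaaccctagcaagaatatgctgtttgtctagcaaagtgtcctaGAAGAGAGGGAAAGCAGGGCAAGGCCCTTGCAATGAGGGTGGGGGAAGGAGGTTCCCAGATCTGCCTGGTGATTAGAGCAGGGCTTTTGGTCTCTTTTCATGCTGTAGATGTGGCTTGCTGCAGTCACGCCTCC
Defb36 (4HT-only, chr2:152604077-152604356, plus strand): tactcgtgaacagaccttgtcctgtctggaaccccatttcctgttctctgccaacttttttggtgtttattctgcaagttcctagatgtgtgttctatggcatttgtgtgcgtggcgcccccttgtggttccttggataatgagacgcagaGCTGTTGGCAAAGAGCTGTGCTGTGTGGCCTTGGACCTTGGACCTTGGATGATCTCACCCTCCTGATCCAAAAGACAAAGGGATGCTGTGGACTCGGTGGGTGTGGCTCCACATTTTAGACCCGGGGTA
Piwil1 (4HT-only, chr5:128735996-128736275, plus strand): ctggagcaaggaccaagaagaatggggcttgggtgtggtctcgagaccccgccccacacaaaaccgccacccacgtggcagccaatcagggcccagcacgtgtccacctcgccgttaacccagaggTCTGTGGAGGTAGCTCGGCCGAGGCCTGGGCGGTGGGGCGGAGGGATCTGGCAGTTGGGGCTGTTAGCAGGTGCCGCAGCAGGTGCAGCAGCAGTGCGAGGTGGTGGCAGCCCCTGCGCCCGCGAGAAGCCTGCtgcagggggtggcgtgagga
Jmjd8 (EtOH-only, chr17:25828793-25829072, plus strand): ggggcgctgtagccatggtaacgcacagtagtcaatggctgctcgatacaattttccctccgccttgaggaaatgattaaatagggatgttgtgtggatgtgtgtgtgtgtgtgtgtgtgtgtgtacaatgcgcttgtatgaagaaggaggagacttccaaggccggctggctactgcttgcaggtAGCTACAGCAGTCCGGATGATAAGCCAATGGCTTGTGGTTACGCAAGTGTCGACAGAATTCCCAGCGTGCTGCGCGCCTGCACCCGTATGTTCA
Nup93 (EtOH-only, chr8:94266597-94266876, plus strand): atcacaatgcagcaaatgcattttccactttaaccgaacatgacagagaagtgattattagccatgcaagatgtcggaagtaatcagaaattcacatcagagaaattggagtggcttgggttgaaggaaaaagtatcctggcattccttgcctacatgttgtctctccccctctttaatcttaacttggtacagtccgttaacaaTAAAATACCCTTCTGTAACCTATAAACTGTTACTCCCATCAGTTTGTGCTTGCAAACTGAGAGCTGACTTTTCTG
Cdkn2c (EtOH-only, chr4:109665343-109665622, minus strand): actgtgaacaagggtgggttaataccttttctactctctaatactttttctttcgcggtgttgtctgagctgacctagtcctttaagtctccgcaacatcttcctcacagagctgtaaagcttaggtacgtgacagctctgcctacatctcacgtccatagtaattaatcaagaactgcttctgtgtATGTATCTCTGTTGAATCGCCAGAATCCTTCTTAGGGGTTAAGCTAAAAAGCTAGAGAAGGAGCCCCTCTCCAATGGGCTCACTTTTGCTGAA

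These 6 promoters range from 40.0% G and C at Nup93 to 67.5% at Piwil1. Olfm3 encodes an olfactomedin, Defb36 a beta-defensin, Piwil1 a PIWI protein of the germ line, Nup93 a nucleoporin and Cdkn2c an inhibitor of cyclin-dependent kinases. The members over them are 116 bp (Jmjd8) to 250 bp (Cdkn2c) wide.

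Values are the authors' coverage signal, scaled to library size (CPM). In every column the smallest value was shared by 36.9% to 51.2% of the autosomal regions read there, and it was taken as the worth of 1 read. Depth was taken as 1 divided by that value and came to 6.78 to 11.2 M reads (mega reads) per column. A level below is a value divided by the 1-read value of its column, and the level of a member is the mean over the 4 columns of the treatment that read it. The signal was read as an average over covered bases, although the coverage program is not given. On that reading, reads that do not overlap keep a level of 1. The 1-read value can then stand for more than 1 read. A missing value was taken to mean that no read was found. Finding no read still allows an expected count of up to 3 reads, a limit that covers counting error only.

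At the Olfm3 start shown the 4HT signal was 0.177 in G1, 0.132 in ES, 0.0903 in LS and 0.314 in G2, with no value in any EtOH column. The G2 value was the highest and the LS value was that of 1 read. At Defb36 the 4HT signal was 0.303, 0.109, 0.0903 and 0.190 in the same order, again with no EtOH value. At Piwil1 each of the 4 values, 0.147, 0.103, 0.0903 and 0.113, was the 1-read value of its column. Piwil1 thus met the rule with the least signal that the table can show.

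At Jmjd8 the EtOH signal was 0.165 in G1, 0.139 in ES, 0.207 in LS and 0.366 in G2, and 4HT had a value in G2 alone (0.143). At Nup93 the EtOH signal was 0.268, 0.119, 0.124 and 0.146, and 4HT had 0.165 in ES alone, above the EtOH signal of ES, LS and G2. Divided by the 1-read value of its column it was 1.61, against 1.63 for EtOH in G2. At Cdkn2c the EtOH signal was 0.100, 0.175, 0.132 and 0.176, and no 4HT column had a value. The treatments overlapped at Jmjd8 and Nup93, and at Cdkn2c 1 of the 4 EtOH values was that of 1 read.

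The signal of the members was low in the treatment that read them. The median level was 1.15 in the 4HT-only class (quartiles 1.02 and 1.31, highest 2.23) and 1.16 in the EtOH-only class (quartiles 1.04 and 1.31, highest 2.39). All regions read in 4 columns of a treatment had a median level of 1.47 in 4HT (53056 regions) and 1.48 in EtOH (56340 regions). No member reached a level of 3. In the 4HT-only class 260 members (21.5%) stood at the 1-read value in all 4 columns, against 4.19% of all regions read in the 4 4HT columns. In the EtOH-only class 282 did (19.4%, against 4.05%). Above the 1-read value in all 4 columns were 25 and 27 members (2.07% and 1.86%, against 36.1% and 38.2%).

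Between fractions, the share of 4HT-only members above the 1-read value was 25.6% in G1, 35.5% in ES, 40.3% in LS and 34.6% in G2. That order is the order of depth, which was 6.78, 9.75, 11.1 and 8.87 M reads. For EtOH-only members the shares were 37.7%, 31.3%, 30.4% and 40.9% at 9.96, 8.38, 8.17 and 11.2 M reads, again in the order of depth. The deepest column was LS in 4HT and G2 in EtOH. The median level in each single column was 1 for both classes. With 1 column per group, fraction and depth cannot be told apart in these shares.

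**Figure D1:**
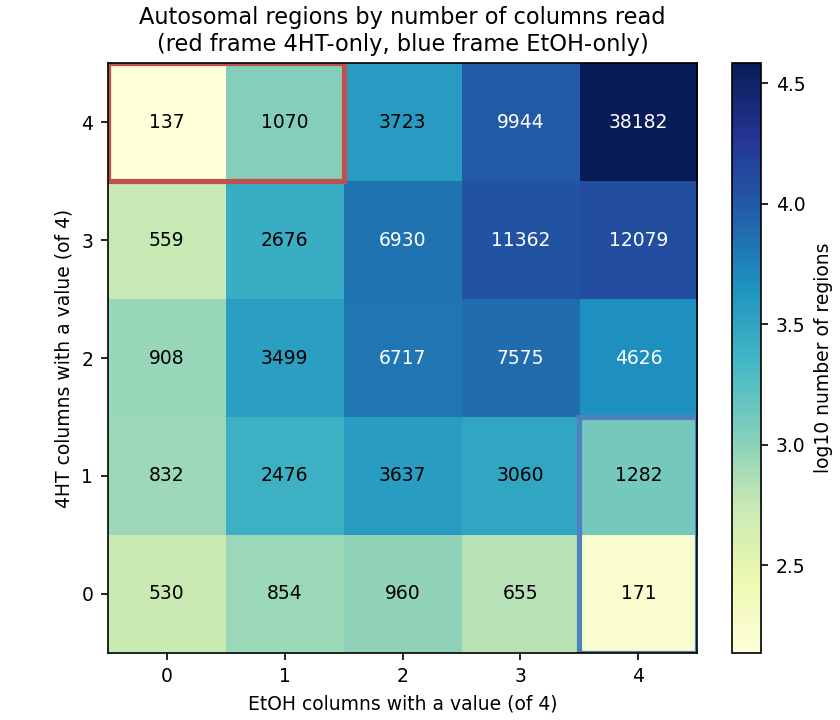
Number of autosomal regions (printed in each cell, colour on a log10 scale) by how many of the 4 EtOH columns (x axis) and of the 4 4HT columns (y axis) hold a value. The framed members, 137 and 1070 regions at the upper left and 171 and 1282 at the lower right, lie far from the 38182 regions read in all 8 columns.

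Few members were missing from the other treatment altogether. In the 4HT-only class 137 members (11.4%) had no value in any EtOH column and 1070 had a value in 1. In the EtOH-only class 171 (11.8%) had no 4HT value and 1282 had 1. Just outside the threshold lay 3723 regions read in all 4HT columns and 2 EtOH columns, and 4626 of the mirrored kind, each set with a median level of 1.21. The median level in 4HT was 1.12, 1.16, 1.21, 1.29 and 1.60 for regions read in 0, 1, 2, 3 and 4 EtOH columns, and the median width was 168, 191, 217, 275 and 517 bp. The plot of regions by columns read shows these counts in both directions.

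The EtOH-only class was 1.20 times as large as the 4HT-only class. At 0, 1, 2 and 3 columns read in the other treatment, 1.25, 1.20, 1.24 and 1.21 times as many regions were read in all 4 EtOH columns as in all 4 4HT columns. Summed over columns, depth was 36.5 M reads in 4HT and 37.7 M reads in EtOH. Without the G1 fraction, which holds the shallowest column (4HT), the order of the classes turned. With 3 of 3 columns read and at least 2 of 3 unread, 5569 regions were then 4HT-only and 4402 EtOH-only (ratio 1.27, against 0.831 with all fractions). Without G2 the ratio was 1.06, without ES 0.658 and without LS 0.560. When values below the 1-read value of the shallowest column were taken as unread in every column, 963 and 359 regions were left (ratio 2.68). That floor is the 1-read value of 4HT in G1, so this column lost no value, while every other column lost its 1-read values. A 4HT-only region could thus stand at the 1-read value in G1, an EtOH-only region in no column. The direction of the difference between the classes depended on the fraction left out and on the floor.

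**Figure D2:**
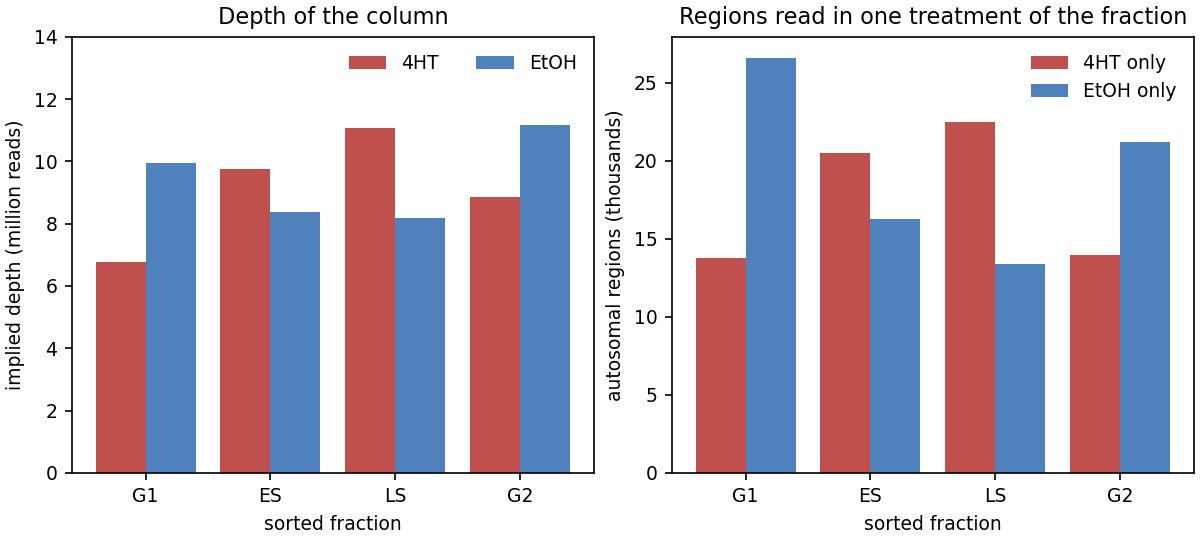
Left, implied depth of each column in M reads (bars from 0, 4HT and EtOH side by side for each fraction). Right, number of autosomal regions read in only one treatment of the same fraction. In all 4 fractions the deeper column of the pair has the larger number, from 13771 against 26605 regions in G1 to 22494 against 13348 in LS.

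Within a single fraction, regions read in one treatment only were many, and their numbers followed depth. In G1, 13771 regions were read in 4HT only and 26605 in EtOH only, at a 4HT to EtOH depth ratio of 0.681. In ES the numbers were 20508 and 16236 (depth ratio 1.16), in LS 22494 and 13348 (1.36), and in G2 13929 and 21191 (0.794). The deeper column had the larger number in 4 of 4 fractions. The ratio of the counts was 0.518 in G1, 0.657 in G2, 1.26 in ES and 1.69 in LS, the order of the depth ratios. Depth and treatment cannot be told apart within a fraction.

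The column in which a member was read by exception was most often the deepest. Of the 1070 4HT-only members read in 1 EtOH column, 347 were read in G2, 320 in G1, 216 in ES and 187 in LS, at 11.2, 9.96, 8.38 and 8.17 M reads. Of the 1282 EtOH-only members read in 1 4HT column, 474 were read in LS, 319 in ES, 296 in G2 and 193 in G1, at 11.1, 9.75, 8.87 and 6.78 M reads. In both classes the order of the 4 counts is that of depth. The exceptional value stood at the 1-read value of its column in 60.2% and 62.5% of cases. It exceeded the member's own level in the treatment that names its class in 339 of 1070 (31.7%) and 393 of 1282 cases (30.7%).

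**Figure D3:**
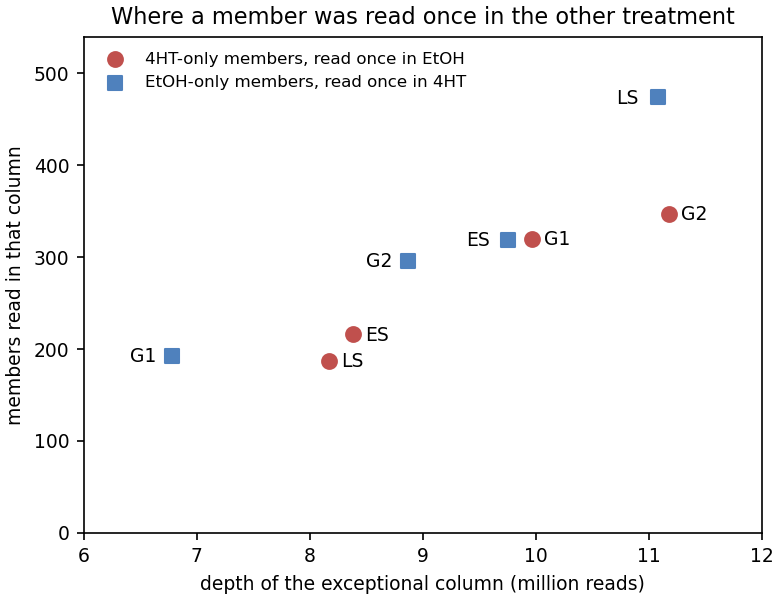
Number of members (y axis) read in each single column of the treatment that otherwise lacks them, against the depth of that column in M reads (x axis), with the fraction beside each point. Circles are 4HT-only members read once in EtOH and squares EtOH-only members read once in 4HT. In each class the count follows depth, from 187 to 347 and from 193 to 474.

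Width and position were not used by the rule, but width went with the number of columns read. Among regions read in all 4 4HT columns, median width rose from 168 bp with 0 EtOH columns read to 517 bp with 4. Under the stated rule members were narrow, with a median width of 188 bp in the 4HT-only class and 194 bp in the EtOH-only class, against 252 bp for all autosomal regions and 517 bp for those read in all 8 columns. With the common floor the medians were 324 and 392 bp, above that of all regions. Of regions up to 150 bp wide, 1.55% were 4HT-only (95% Wilson interval 1.40% to 1.71%) and 1.71% EtOH-only (1.56% to 1.88%). Of regions over 500 bp wide, 0.106% (0.0728% to 0.154%) and 0.149% (0.109% to 0.204%) were. These intervals cover counting error only, and regions are not replicates. The widest members measured 837 bp and 879 bp.

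Under the stated rule most members lay away from promoters. On the autosomes for which start sites were at hand, 80 of 1168 4HT-only members (6.85%, interval 5.54% to 8.44%) and 106 of 1409 EtOH-only members (7.52%, 6.26% to 9.02%) were within 1 kb of a TSS, against 14.9% of all regions. When all regions were weighted to the widths of each class, their share was 9.03% and 9.31%. By width, 8.49% and 7.56% of members up to 150 bp were within 1 kb, against 6.99% of all regions of that width. From 301 to 500 bp it was 4.44% and 9.84%, against 11.8%, and over 500 bp 5 of 25 and 3 of 37 members, against 38.1%. With the common floor the shares were 17.1% and 21.3%, above that of all regions. From 10 to 100 kb lay 52.4% and 55.9% of the classes (49.5% of all regions), and beyond 100 kb 20.8% and 18.1% (16.7%). The median distance to a TSS was 27.3 kb and 26.8 kb, against 21.2 kb for all regions. Gene bodies held 57.6% and 59.7% of the members, against 60.4% of all. No test of these differences was made.

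**Figure D4:**
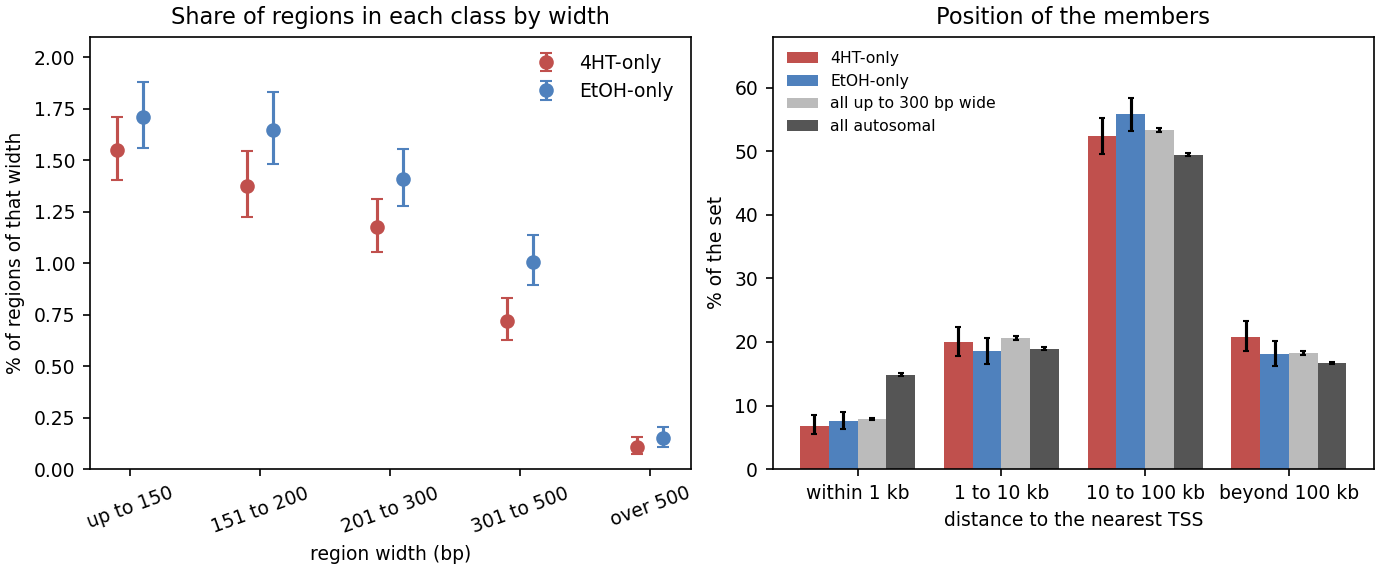
Left, percentage of autosomal regions in each width class that are 4HT-only or EtOH-only, with 95% Wilson intervals. Right, percentage of each set by distance to the nearest TSS, with the same intervals, where the set up to 300 bp wide leaves out widths that the classes include. Both classes thin out with width, from 1.55% and 1.71% up to 150 bp to 0.106% and 0.149% over 500 bp, and 6.85% and 7.52% of them lie within 1 kb, against 14.9% of all regions.

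The members were spread over all 19 autosomes. EtOH-only members were more numerous on 16 of them, 4HT-only members on chromosomes 1 (114 against 105) and 9 (70 against 61), and chromosome 12 had 58 of each. The 4HT-only share of a chromosome's regions ran from 0.687% on chromosome 19 to 1.20% on chromosome 1. The EtOH-only share ran from 0.909% on chromosome 17 to 1.43% on chromosome 15.

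Of 20623 genes with a region in the body, 702 (3.40%) held a 4HT-only member and 851 (4.13%) an EtOH-only member. Both classes occurred in 88 genes, 12.5% of the former and 10.3% of the latter. These genes were long, with a median of 90.7 kb and 81.8 kb, against 21.7 kb for all genes with a region. Macrod2, an ADP-ribose hydrolase gene of 1998 kb, had 4 4HT-only and 3 EtOH-only members among its 79 regions. Asic2, an acid-sensing ion channel gene, had 3 4HT-only and 0 EtOH-only members among 42 regions. Pde4d, a phosphodiesterase gene, had 0 and 3 among 134. These genes were named after their counts were seen.

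Around start sites, where 124 of the 1207 4HT-only and 146 of the 1453 EtOH-only members lay inside a window of the second table, the windows were mostly read in both treatments. Of 133 windows of 5000 bp around a TSS that held a 4HT-only member, 132 had a value in all 4 EtOH columns. Of 165 windows with an EtOH-only member, 164 had a value in all 4 4HT columns. Over all 35043 autosomal windows, 96.9% were read in all EtOH columns and 96.7% in all 4HT columns. Windows with 4HT-only members had a median level of 1.24 in 4HT and 1.24 in EtOH, and those with EtOH-only members 1.26 and 1.27. These windows hold the reads of the members too and come from the same libraries.

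The nearest other region lay within 5 kb for 741 4HT-only and 868 EtOH-only members (61.4% and 59.7%, against 62.8% of all autosomal regions). For the 4HT-only class it was read in a mean of 2.85 4HT and 2.85 EtOH columns. For the EtOH-only class the means were 2.78 and 2.96 (4HT minus EtOH, -0.175), and over all regions 3.05 and 3.10 (-0.0474). Neighbours of 4HT-only members were 4HT-only in 12 cases (1.62%) and EtOH-only in 11 (1.48%), against 0.916% and 1.10% for the neighbours of all regions. Neighbours of EtOH-only members were 4HT-only in 9 cases (1.04%) and EtOH-only in 15 (1.73%). Of the neighbours 22.7% and 22.6% were read in all 8 columns, against 32.1% for all regions. No test was made, since these counts rest on the same contrast as the rule.

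Among 4HT-only members whose nearest start, within 10 kb, was not that of a predicted gene, the highest level was that of a region 7.58 kb from the start of Evi5l, a RabGAP-family gene (level 2.13, chromosome 8, 4174147 to 4174276, build mm10 here and below). Its 4HT signal was 0.345 in G1, 0.428 in ES, 0.0903 in LS and 0.113 in G2, and its EtOH signal 0.120 in G1. Of its 4HT values only those of G1 and ES exceeded the 1-read value. Its EtOH value was 1.20 times the 1-read value of its column, and its EtOH signal exceeded the 4HT signal of LS and G2. The region in Nceh1, a cholesterol ester hydrolase gene (1.99, chromosome 3, 27191743 to 27191858), had 0.231, 0.290, 0.219 and 0.130 in 4HT and 0.100, the value of 1 read, in EtOH in G1. All its 4HT values exceeded the 1-read value of their columns and its EtOH value did not. The region 201 bp from the start of Tnfrsf1a, the gene of a TNF receptor (1.97, chromosome 6, 125349924 to 125350078), had 0.379, 0.229, 0.0903 and 0.233 in 4HT and 0.100 in EtOH in G1. Here the LS value in 4HT was that of 1 read.

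The members in Dpp6, the gene of a potassium channel partner (level 1.77), and in Hnrnpf, an RNA-binding protein gene (1.59), were unread in all EtOH columns. In Dpp6 (chromosome 5, 27256257 to 27256402) the 4HT signal was 0.147, 0.237, 0.169 and 0.216. In Hnrnpf (chromosome 6, 117920757 to 117920871) it was 0.147, 0.251, 0.163 and 0.123. In both, the G1 value was that of 1 read and the ES value was the highest. The members in Hmmr, a hyaluronan receptor gene (1.75), and nearest Cdk2, the gene of a cell cycle kinase (1.66, within Pmel), had an EtOH value in G2 (0.133 and 0.154). Those in Cox19, a cytochrome oxidase assembly gene (1.74), Rhoh (1.72) and Slc27a4, a fatty acid transporter gene (1.63), had one in ES (0.119, 0.209 and 0.192). The 4HT signal of the same fraction was 0.220 at Hmmr, 0.231 at Cdk2, 0.362 at Cox19, 0.144 at Rhoh and 0.195 at Slc27a4. Only at Rhoh was it below the EtOH value. Across fractions the treatments overlapped in signal at all of these but Hmmr.

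Within 1 kb, and again with members nearest a predicted gene passed over, the further 4HT-only members of highest level lay at Olfm3 (1.57), the tubulin gene Tuba4a (1.55), Zfp821 (1.51), the casein kinase gene Csnk1e (1.46), Defb36 (1.45), Vwa3a (1.42), Dtnbp1 (1.40) and the catalase gene Cat (1.39). Of these 8, Olfm3, Defb36 and Dtnbp1 had no EtOH value. At Cat the level rested on G1, with 0.378 there and the 1-read value in ES, LS and G2.

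The highest level of all 4HT-only members was 2.23, at a region 16.8 kb from the nearest start, that of Gm10044 (chromosome 14, 7808569 to 7808812). Its 4HT signal was 0.282, 0.417, 0.0903 and 0.221, and its EtOH signal 0.100 in G1. Next came a region within Abcc5, an ABC transporter gene (2.23, chromosome 16, 20361642 to 20361755, nearest start Cyp2ab1), with 0.520, 0.151, 0.262 and 0.113 in 4HT and 0.236 in EtOH in G2. The third lay within Slc37a1 (2.20, chromosome 17, 31295185 to 31295398, nearest start Gm30139), with 0.147, 0.396, 0.0903 and 0.332 in 4HT and 0.303 in EtOH in G2. At each of these regions the EtOH value lay within the range of the 4HT values, though near Gm10044 it was the 1-read value.

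The EtOH-only member of highest level lay 9.71 kb from the start of Rpl12, a ribosomal protein gene (2.39, chromosome 2, 32971426 to 32971537). Its EtOH signal was 0.306 in G1, 0.354 in ES, 0.122 in LS and 0.229 in G2, and its 4HT signal in LS was 0.265, above the EtOH values of LS and G2. The member 4.98 kb from the start of Spsb1, a SOCS-box gene (2.15, chromosome 4, 149959982 to 149960209), had 0.291, 0.119, 0.142 and 0.317 in EtOH and the 1-read value 0.0903 in 4HT in LS. In signal the treatments overlapped at Rpl12 and did not at Spsb1. At Spsb1, however, the EtOH value in ES was also that of 1 read. The members in Atp5j2, an ATP synthase subunit gene (1.77), and in Prkd2, a protein kinase D gene (1.71), were unread in all 4HT columns. In Atp5j2 (chromosome 5, 145184585 to 145184732) the EtOH signal was 0.281, 0.235, 0.136 and 0.107, all above the 1-read value. In Prkd2 (chromosome 7, 16848719 to 16848888) it was 0.107, 0.382, 0.122 and 0.140, with the ES value apart from the rest.

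With members nearest a predicted gene passed over, the other EtOH-only members of highest level within 10 kb of a start were nearest Jmjd8, Tbc1d2b (1.99), Btbd3 (1.86), the cathepsin gene Ctsl (1.86), the perilipin gene Plin1 (1.73) and Lnx2 (1.73). Each had 1 4HT value, in LS for Tbc1d2b (0.211), Btbd3 (0.245) and Ctsl (0.144), in G2 for Jmjd8 and Plin1 (0.155), and in G1 for Lnx2 (0.147). Within 1 kb, by the same limit, the further members lay at Nup93 (1.58), Vsig10 (1.57), the poly(A) polymerase gene Tent4b (1.56), the prefoldin gene Pfdn4 (1.54), Pcbd2 (1.45), the transcription factor gene Ebf3 (1.45), Afg3l1 (1.44) and Tmem178b (1.43). Of these 8, Tent4b had no 4HT value, with 0.203, 0.208, 0.183 and 0.0895 in EtOH. At Vsig10 and Afg3l1 the single 4HT signal exceeded all 4 EtOH signals. It was 0.229 in ES at Vsig10, against 0.100, 0.119, 0.227 and 0.217 in EtOH. At Afg3l1 it was 0.313 in G1, against 0.144, 0.119, 0.286 and 0.0895. Divided by the 1-read value of its column it was 2.23 at Vsig10, below the 2.43 of EtOH in G2. At Afg3l1 it was then 2.12, below the 2.33 of EtOH in LS.

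**Figure D5:**
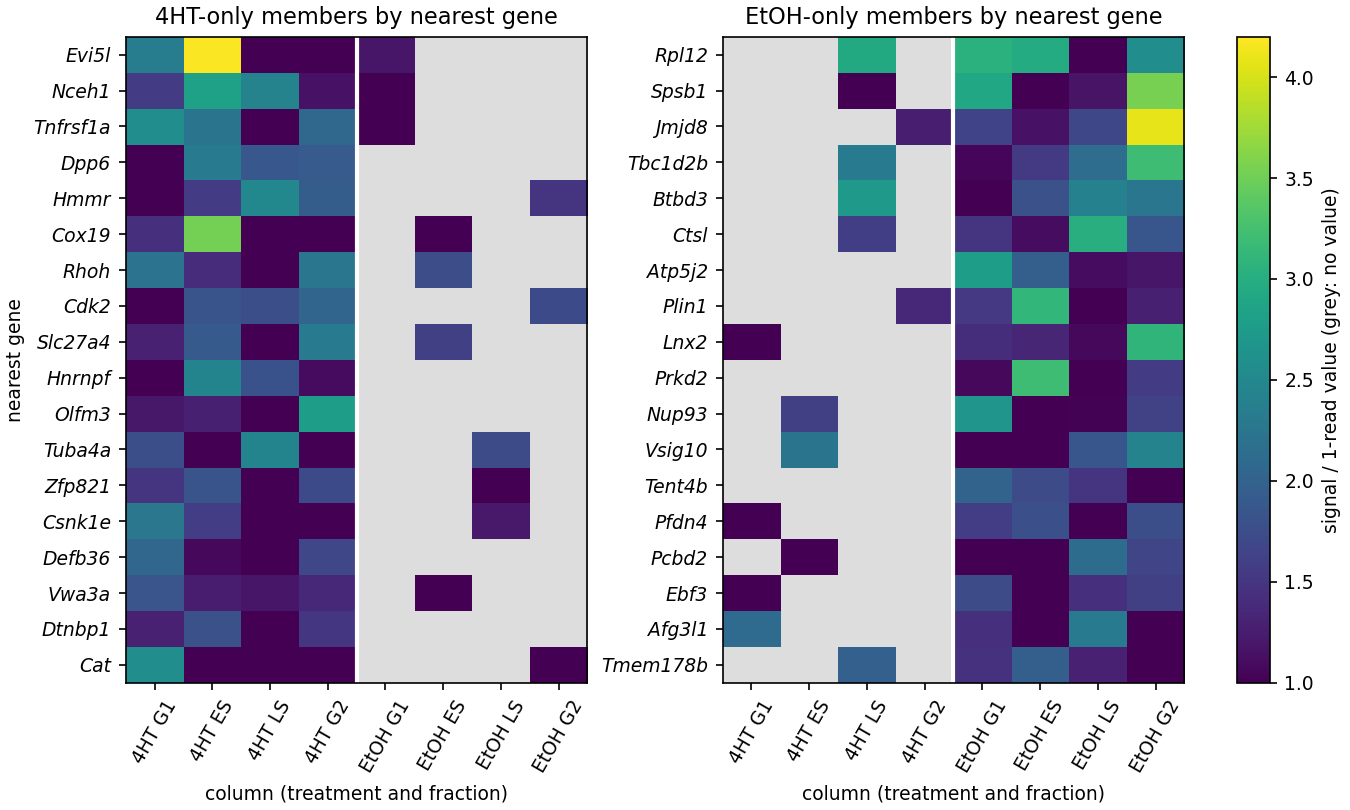
Signal divided by the 1-read value of the column (colour, from 1 upwards, grey where there is no value) in the 8 columns (x axis) for the members of highest level within 10 kb and within 1 kb of a start, named by the nearest gene (y axis), members nearest a predicted gene being passed over. Levels differ from column to column within the treatment that is read, and members other than Dpp6, Hnrnpf, Olfm3, Defb36, Dtnbp1, Atp5j2, Prkd2 and Tent4b have 1 value in the other treatment.

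Of 9 lists of pluripotency, lineage, signalling and repressor genes, 178 genes in all, 124 had a start site in the annotation used, and 424 regions had one of these as the nearest start within 10 kb. Of these regions 0 were 4HT-only and 1 was EtOH-only (0.236%), against 313 and 367 of all 40671 regions within 10 kb of a start (0.770% and 0.902%). The regions near list genes had a median width of 315.5 bp, against 304 bp for all within 10 kb. The lists of formative and primed pluripotency (40 regions), neural crest (48), neuroectoderm (58), mesendoderm (31), FGF and MAPK (55), Wnt pathway (63), Nodal, TGF-beta and BMP (41) and chromatin repressors (64) had 0 members of either class. The 1 member of the naive pluripotency list (63 regions) lay 3.41 kb downstream of the start of Lifr, the gene of a receptor subunit for leukaemia inhibitory factor (level 1.36, chromosome 15, 7143948 to 7144108). Its EtOH signal was 0.149 in G1, 0.119 in ES, 0.240 in LS and 0.0895 in G2, and its 4HT signal was 0.113 in G2. Only the G1 and LS values in EtOH exceeded the 1-read value.

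A set of 6 motifs was searched on both strands in the promoters overlapped by members, 31 for the 4HT-only and 39 for the EtOH-only class (overlapping promoters of a gene count separately), over 250 bases before to 50 after the start. The forkhead motif TGTTTAC was found in 0 of 31 and 3 of 39, against 3.71% of all 31396 autosomal promoters. Those of Gm39783 and Gm31408 lay inside the member and that of Gm51574 outside it, and these were named after the search. The octamer ATTTGCAT was found in 1 and 0 (1.75% of all), the nuclear receptor motif TCAAGGTCA in 1 and 0 (0.417%), the AP-1 motif TGANTCA in 0 and 1 (7.84%) and the E-box CACGTG in 3 and 2 (7.14%). The GC box GGGCGG was found in 10 (32.3%) and 14 (35.9%), against 36.0% of all. In the Piwil1 sequence printed above, GGGCGG lies inside the member, while its reverse complement CCGCCC and the E-box CACGTG lie before it. The median G and C content was 57.3% and 54.3%, against 53.0% of all promoters. A match describes letters and is not a binding site.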

How the data were processed

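Accessible regions and TSS windows of 5000 bp were each deposited as a table with 8 columns of coverage signal, 1 per treatment and fraction. The name of each table gives CPM, and per the file headers the columns carry no replicate number, so the 2 libraries of a group were taken as merged. The submitters' processing notes name build mm10 and, without a role, featureCounts and DESeq2. For the aligner, the caller of regions and the coverage program, the tool is not given in the sources used here.

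Starts were written 1-based. TSSs came from RefSeq promoters of GRCm38.p6 (27025 genes, 32851 promoters), which gave distances for 120227 autosomal regions and 2577 members, none on chromosome 18. Distances run from the edge of a region to the nearest annotated start, which need not be the first start of its gene. Exons, introns and UTRs were not analysed here. No test was made and no p-value is given, because the rule uses the treatment contrast and each group has 1 column. Shares have 95% Wilson intervals. Named members are, in each class, the 10 of highest level within 10 kb of a TSS, the 10 within 1 kb, up to 2 per gene list (predicted genes passed over) and the 3 highest of all, with chromosome 18 passed over. The members and lists were chosen with earlier results of these data known. Alternatives were other numbers of unread columns, the omission of each fraction, a common floor, a minimum level, all chromosomes and other promoter distances. The scripts were tested on simulated data. Python 3.11.15, pandas 2.3.3, numpy 2.4.6, scipy 1.17.1 and matplotlib 3.10.9 were used.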

Additional observations from a re-analysis of the deposited data

Results flagged for a closer look

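The 4HT minus EtOH difference in the number of regions read in one treatment only had opposite signs in different fractions. It was -12834 regions in G1 and -7262 in G2, where the EtOH column was deeper, and 4272 in ES and 9146 in LS, where the 4HT column was deeper. The difference between fractions was not tested, since each group has 1 merged column.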

How the results depend on the processing

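No paired analysis was possible because the columns are merged over replicates and carry no replicate number. Depth limits the rule, since finding no read still allows an expected count of up to 3 reads. The ratio of 4HT-only to EtOH-only counts of 0.831 turned to 1.27 without the G1 fraction, 1.06 without G2 and 2.68 with the common floor, and was 0.560 to 0.983 in the other settings. Without G1, ES, LS and G2, where fewer columns have to meet the rule, the 4HT-only count was 5569, 4141, 3836 and 5377 and the EtOH-only count 4402, 6290, 6846 and 5061. With all 4 columns of the other treatment unread, 137 and 171 regions were left. With at least 3 of 4 read and all 4 unread there were 696 and 826, and with a level of at least 1.5 there were 114 and 116. With the common floor, at which 4HT in G1 alone lost no value, the EtOH-only count was 359.

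The percentage within 1 kb of a TSS was 4.30% and 4.68% for the 4HT-only and EtOH-only class with at least 3 of 4 read and all 4 unread, and 17.1% and 21.3% with the common floor. It was 9.82% for 4HT-only with a level of at least 1.5, and 4.85% for EtOH-only with all 4 unread. At distances of 500 and 2000 bp it was 4.45% and 9.25% for 4HT-only and 4.76% and 10.01% for EtOH-only. The median width was 168 and 172 bp with all 4 unread, 162 and 164.5 bp with at least 3 read, 172 and 165 bp with a level of at least 1.5, and 324 and 392 bp with the common floor. Without G1, ES, LS and G2 it was 197, 197, 198 and 199 bp for 4HT-only, and without ES, LS and G2 205, 204.5 and 206 bp for EtOH-only. The median level was 1.12 and 1.14 with all 4 unread, 1.08 and 1.09 with at least 3 read, 1.63 and 1.60 with a level of at least 1.5, and 1.82 and 1.91 with the common floor. It was 1.18 without G1 and 1.13 without LS for 4HT-only, and 1.19 without ES and 1.18 without LS for EtOH-only. A level of at least 1.5 and the common floor both remove low values, so the median level is higher there by construction. The cause of the other shifts was not tested. The remaining 30 of 85 recomputed values lay within the interval of the reported value or, for counts and the ratio, within 1.5 times of it.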
